A study of Mus musculus with 31 samples.

Results

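Coagulation genes were followed in leukocytes taken out of mouse mammary tumours after radiotherapy. The 10 genes were chosen by name from the blood clotting system: F10, F7, F13a1, F3, F5, Fgb, Tfpi, Thbd, Procr and Plaur, of 38406 gene symbols in the count tables. The choice was made with the results of these libraries in view, so fold changes and calls of the 10 genes against mock and between regimens are a description of the libraries and carry no test here. AT3-OVA cells, a triple negative mammary tumour line carrying ovalbumin, were placed in the mammary fat pad of wild-type female C57BL/6 mice, and each tumour was treated locally. Tumours harvested 5 days after the end of treatment gave 6 libraries for 3x4Gy (mock schedule 3x0Gy, 4 libraries) and 6 for 1x20Gy (mock schedule 1x0Gy, 4 libraries). Tumours harvested on day 13 gave 7 libraries for 1x20Gy, with 4 for 1x0Gy. Mock mice were anaesthetised like the irradiated ones, and in all 6 groups CD45.2+ cells, the pan-leukocyte fraction, were sorted before bulk RNA-seq. The animals' ages are not given in the sources used here.

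Blood clots when tissue factor (F3) meets factor VII (F7) on a membrane and the pair activates factor X (F10). Factor Xa with its cofactor factor V (F5) makes thrombin, thrombin turns fibrinogen (chains Fga, Fgb and Fgg) into fibrin, and factor XIII (A chain F13a1) cross-links it. Tfpi blocks the first step, thrombomodulin (Thbd) and the endothelial protein C receptor (Procr) turn thrombin towards the anticoagulant protein C, and Plaur binds urokinase, which starts fibrin breakdown. Most soluble factors come from the liver, while macrophages and monocytes are known as sources of tissue factor, factor XIII-A and, in several tissues, factors VII and X.

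F7 and F10 lie next to each other on the plus strand of chromosome 8, F7 at chr8:13026034-13035809 and F10 at chr8:13037308-13056676 (GENCODE M21, GRCm38), with 1498 bases between them. The beta chain gene Fgb (chr3:83040141-83049863, minus strand) lies 6513 bases from Fga, which in turn lies 11026 bases from Fgg (chr3:83007724-83015049, plus strand). The promoter windows of both pairs are shown because each pair is adjacent or clustered and its members had like patterns over the libraries. Each window runs 5′ to 3′ from 250 bases before to 50 bases after the RefSeq start on GRCm38.p6: chr8:13037058-13037357 for F10, chr8:13025784-13026083 for F7, chr3:83049814-83050113 on the minus strand for Fgb and chr3:83007474-83007773 for Fgg. Such windows were found for 9 of the 10 genes, Thbd being the exception. Capitals mark matches, on either strand, to 4 short motifs.
F10: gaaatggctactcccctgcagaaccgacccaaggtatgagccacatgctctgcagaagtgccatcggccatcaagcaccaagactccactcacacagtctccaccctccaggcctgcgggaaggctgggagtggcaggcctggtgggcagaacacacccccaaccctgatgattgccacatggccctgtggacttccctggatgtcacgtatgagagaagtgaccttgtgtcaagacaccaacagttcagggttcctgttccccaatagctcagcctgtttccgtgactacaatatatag
F7: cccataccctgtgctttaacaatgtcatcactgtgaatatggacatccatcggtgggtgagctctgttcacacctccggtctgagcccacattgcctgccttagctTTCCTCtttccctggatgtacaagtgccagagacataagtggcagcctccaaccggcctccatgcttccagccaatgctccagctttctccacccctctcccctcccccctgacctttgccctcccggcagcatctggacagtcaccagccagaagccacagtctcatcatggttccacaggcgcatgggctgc
Fgb: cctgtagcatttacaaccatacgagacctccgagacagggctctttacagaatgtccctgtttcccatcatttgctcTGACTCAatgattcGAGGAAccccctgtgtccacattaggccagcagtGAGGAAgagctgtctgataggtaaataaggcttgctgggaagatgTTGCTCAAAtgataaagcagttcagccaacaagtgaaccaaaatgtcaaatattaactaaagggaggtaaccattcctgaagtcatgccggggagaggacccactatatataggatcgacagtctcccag
Fgg: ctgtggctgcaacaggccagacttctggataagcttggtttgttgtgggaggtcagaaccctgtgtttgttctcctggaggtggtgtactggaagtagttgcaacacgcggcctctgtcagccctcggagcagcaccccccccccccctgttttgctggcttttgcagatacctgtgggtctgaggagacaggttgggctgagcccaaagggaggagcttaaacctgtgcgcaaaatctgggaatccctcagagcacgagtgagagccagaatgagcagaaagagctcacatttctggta
The motifs were TGANTCA of AP-1, GAGGAA of PU.1, TTGCNNNAA of C/EBP and ACTTTG, a half-site of HNF4. The F7 window held 1 GAGGAA, on the minus strand at -144 (the leftmost printed base, counted from the start). The Fgb window held the AP-1 motif at -173 (the letters match on both strands), GAGGAA at -159 and -125, and the C/EBP motif at -80. No match to the 4 motifs stood in the F10 or Fgg window. Among all 32851 mouse promoter windows of this length 7.81% held the AP-1 motif, 28.3% GAGGAA, 9.56% the C/EBP motif and 14.4% the HNF4 half-site.

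Total gene counts per library ran from 2641229 to 7541144, so that 3 counts correspond to between 0.398 and 1.14 CPM (counts scaled to the same library total, the usual unit). Levels below are CPM scaled by edgeR's trimmed mean of M values (TMM) within a day, and differences are log2 fold changes with the standard error (SE) of edgeR's fit. Day and experiment cannot be told apart from the sample codes, so levels are not compared between days. Nothing states whether libraries of a group came from separate animals, so the spread may be partly technical. The leukocyte markers Ptprc, Cd52, Coro1a and Laptm5 summed to between 3616 and 5080 CPM per library after 3x4Gy, against between 2129 and 3327 after 3x0Gy, and 2 of the 4 were called higher. At day 5 their sum was between 3887 and 4849 CPM after 1x20Gy, against between 3631 and 3792 after 1x0Gy, and at day 13 between 4184 and 5265 after 1x20Gy, against between 3897 and 4317 after 1x0Gy, with 0 of the 4 called in either. Reads that the deposited counts assign to no annotated feature are called reads outside genes here. Reads from introns may be among them, since the type of feature counted is not given in the sources used here. Their share also differed, at 24.1% ± 2.89 after 3x4Gy and 16.1% ± 7.29 after 3x0Gy (SD, n = 6 and 4). At day 5 it was 23.5% ± 4.51 after 1x20Gy and 16.9% ± 1.20 after 1x0Gy (n = 6 and 4). At day 13 it was 25.8% ± 3.66 after 1x20Gy and 20.4% ± 2.59 after 1x0Gy (n = 7 and 4). The part of the leukocyte markers in the results was not tested. The 3x0Gy library 2 stood apart, with 5.65% of reads outside genes and a summed macrophage marker level of 23486 CPM. Without it the log2 fold changes after 3x4Gy were 3.18 for F10, 2.50 for F7, 1.25 for Procr and 0.88 for Thbd, all called, -1.09 for F13a1, not called, 1.84 for Fgb and -0.23 for Tfpi.

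Marker genes of other cells moved with treatment. The 10 fibroblast markers summed to between 19.0 and 53.9 CPM after 3x4Gy, against between 229 and 652 CPM after 3x0Gy, with 7 of 7 tested markers called lower. At day 5 they summed to between 15.5 and 73.2 CPM after 1x20Gy, against between 111 and 354 CPM after 1x0Gy (3 of 7 lower), and at day 13 to between 16.0 and 51.8 CPM after 1x20Gy, against between 120.1 and 203 CPM after 1x0Gy (5 of 7 lower). The 10 epithelial and tumour markers summed to between 187 and 886 CPM after 3x4Gy, against between 565 and 1276 CPM after 3x0Gy (2 of 10 lower). At day 5 they summed to between 173 and 578 CPM after 1x20Gy and between 462 and 714 CPM after 1x0Gy (5 of 10 lower). At day 13 the sums were 823 to 2427 CPM after 1x20Gy and 746 to 1045 CPM after 1x0Gy (2 higher and 1 lower of 9 tested). In bulk samples, fewer cells of a type and less RNA per cell cannot be told apart.

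Hepatocyte genes were close to absent: Alb, Ttr, Serpina1a and Tat had 0 counts in all 31 libraries, and the summed level of 8 hepatocyte markers did not exceed 1.05 CPM in any library. Of the platelet markers, Gp9 had 0 counts and Gp6 and Tubb1 had 3 and 1 counts over the 31 libraries, while Pf4, which macrophages also express, had 3930. Itgb3 and Itga2b had 1138 and 321 counts and were at 0 in no library. The endothelial markers were uneven. Tek and Cldn5 had 4 and 5 counts, against 8459 for Pecam1, 5092 for Kdr, 425 for Cdh5 and 388 for Vwf.

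All 10 genes passed the filter on low counts on both days. In 3x4Gy against 3x0Gy, edgeR called 4 of the 10 higher (F10, F7, Procr, Thbd) and 1 lower (F13a1) at an adjusted p below 0.05. Over all 12021 genes 5.22% were called higher and 7.14% lower, 12.4% in all. The groups did not overlap for 3 of the 10 (F10, F7 and Thbd, all above mock), and for 9.58% of all genes (3.91% above mock). In 1x20Gy against 1x0Gy at day 5, 3 of the 10 were called higher (F10, F7, Procr) and 1 lower (Tfpi), against 3.64% higher and 4.86% lower of all genes (8.5% in all). Here 5 of the 10 did not overlap (F10 and Procr above mock, F3, Fgb and Tfpi below), as did 11.5% of all genes (5.44% above and 6.07% below mock). At day 13, 0 of the 10 were called by edgeR and 0 were free of overlap, against 7.98% called (4.16% higher, 3.82% lower) and 7.28% without overlap over 11071 genes. In the same edgeR fit 4 of the 10 had an unadjusted p below 0.05, as did 2568 of the 11071 genes. Limma voom called 0 of the 10 and 945 of all genes, and DESeq2 called 1 of the 10 (F5) and 1265 of all genes. The median log2 fold change of the 10 genes was 0.90 for 3x4Gy (-0.0040 over all genes), 0.28 for 1x20Gy at day 5 (0.022) and -0.0025 at day 13 (0.0052).

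**Figure D1:**
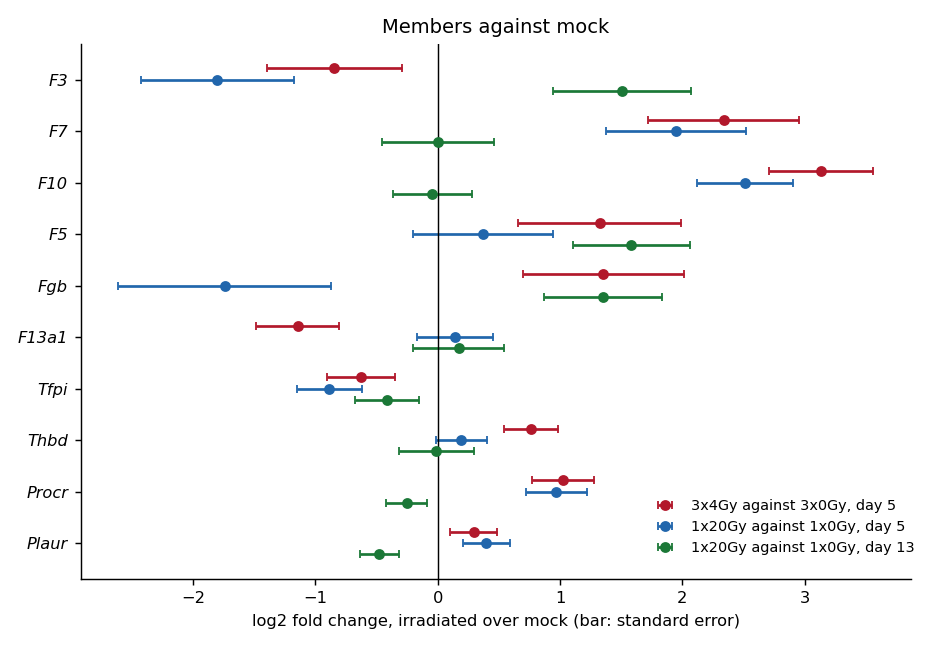
Log2 fold changes (x axis) of the 10 coagulation genes for irradiated over mock in 3 comparisons (colours), with bars for the standard error. F10 and F7 lie furthest to the right at day 5 and at 0 at day 13, and F13a1 is to the left only after 3x4Gy.

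The scaling moves these counts. Of all genes, 628 were higher and 858 lower in 3x4Gy under TMM, 444 and 1103 under upper quartile scaling, and 326 and 1077 by library size alone. For 1x20Gy at day 5 the same counts were 438 and 584, 319 and 740, and 206 and 931, and at day 13 461 and 423, 372 and 512, and 203 and 1326. Library size alone shifted the median of all genes by -0.10, -0.11 and -0.23 on the log2 scale in the 3 comparisons. When the mean log2 level of fibroblast and epithelial markers per library was added as a covariate, 83, 59 and 133 genes were called in the 3 comparisons, against 1486, 1022 and 884 without it. Of the 5 genes called after 3x4Gy only F10 was then called (2.50), against 1.10 for F7, -0.73 for F13a1, 0.65 for Thbd and 0.66 for Procr, while Fgb was called in addition (3.52). None of the 4 called after 1x20Gy at day 5 was called with it. Their values were 1.94 for F10, 0.80 for F7, 0.66 for Procr and -0.74 for Tfpi. This covariate ran from 1.75 to 3.52 after 3x4Gy, against 4.11 to 4.92 after 3x0Gy. At day 5 it ran from 1.63 to 3.38 after 1x20Gy, against 3.41 to 4.54 after 1x0Gy. At day 13 it ran from 3.11 to 4.16 after 1x20Gy, against 3.89 to 4.07 after 1x0Gy. As neither day 5 pair of groups overlapped, the covariate cannot be told apart from treatment there. A call lost with it, here or below, does not tell which cells the RNA came from.

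Initiation begins with F3, tissue factor, the membrane receptor of factor VII. F3 was scarce: the 3x4Gy libraries had a lowest level of 0.295, a median of 1.41 and a highest of 7.58 CPM, against 1.39, 7.15, 3.25 and 5.89 CPM after 3x0Gy. The groups overlapped, with library 2 of 3x4Gy at the top, and the log2 fold change was -0.84 (SE 0.55), not called. Without that library it was -1.71 and called, and with the marker covariate it was 0.31. Once 1x20Gy had been given, day 5 F3 levels ran from 0.218 through a median of 0.686 to 1.69 CPM, against 2.55, 2.88, 3.27 and 2.69 CPM after 1x0Gy. All 6 irradiated libraries lay below all 4 mock libraries, on 1 to 9 counts each, and the log2 fold change of -1.80 (SE 0.63) was not called. DESeq2, and a fit of the compared groups alone, called it (-1.86 and -1.81). At day 13 the 1x20Gy libraries ran from 2.30 through 3.11 to 16.0 CPM, against 1.53, 1.08, 2.09 and 2.54 CPM after 1x0Gy, a log2 fold change of 1.5 (SE 0.56) that was not called. With the share of reads outside genes as a covariate the day 13 value was 2.56 and called. Over the 31 libraries, after the group means were removed, F3 had a Pearson r of 0.51 with the epithelial markers and -0.62 with the leukocyte markers. The part of other cells in these values was not tested.

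F7, factor VII, the serine protease that tissue factor activates, was higher after both regimens at day 5. The 3x4Gy libraries had 5.26 CPM at the lowest, a median of 10.8 and 27.5 at the highest, against 1.05, 3.75, 2.40 and 2.79 CPM after 3x0Gy. Every 3x4Gy library lay above every 3x0Gy library, and the fold was 5.06 (log2 2.34, SE 0.62). After 1x20Gy the range was 4.81 to 31.3 CPM with a median of 8.00, against 1.404, 1.44, 5.57 and 3.58 CPM after 1x0Gy. The lowest 1x20Gy libraries, at 4.81 and 5.52 CPM, were under the highest mock library, and the fold was 3.85 (log2 1.95, SE 0.57). Without 1x20Gy library 2, the highest, the log2 value was 1.29 and not called. The call was also lost without 1x20Gy library 3 (1.95) and without 1x0Gy library 1 (1.69), 2 (1.72) or 4 (2.04), and with the compared groups alone in the fit (1.95). Limma voom (2.09 and 1.92) and a fit without the filter (2.33 and 1.92) called F7 after neither regimen. At day 13, F7 ran from 0.408 through 3.01 to 4.66 CPM after 1x20Gy, against 2.14, 2.43, 6.06 and 1.15 CPM after 1x0Gy. The groups overlapped and the log2 fold change was 0.0053 (SE 0.46).

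F10, factor X, the protease on which the tissue factor and contact routes meet, had the largest fold of the 10 genes in both day 5 comparisons with mock. The 3x4Gy libraries ran from 24.4 through a median of 46.6 to 90.8 CPM, against 3.49, 6.13, 4.11 and 7.13 CPM after 3x0Gy. The lowest irradiated library was more than 3 times the highest mock library, and the fold was 8.78 (log2 3.13, SE 0.43). After 1x20Gy the libraries ran from 27.9 through 36.5 to 91.4 CPM, against 4.98, 9.11, 10.8 and 6.45 CPM after 1x0Gy, again without overlap, with a fold of 5.71 (log2 2.51, SE 0.39). Leaving out each library in turn kept F10 called, with log2 values between 2.83 and 3.37 after 3x4Gy and between 2.17 and 2.71 after 1x20Gy. At day 13, F10 was at 2.86 to 13.3 CPM with a median of 9.94 after 1x20Gy, against 6.43, 9.44, 17.4 and 6.47 CPM after 1x0Gy. These groups overlapped, and the log2 fold change was -0.042 (SE 0.32), or 0.63 with reads outside genes as a covariate, called in neither fit.

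**Figure D2:**
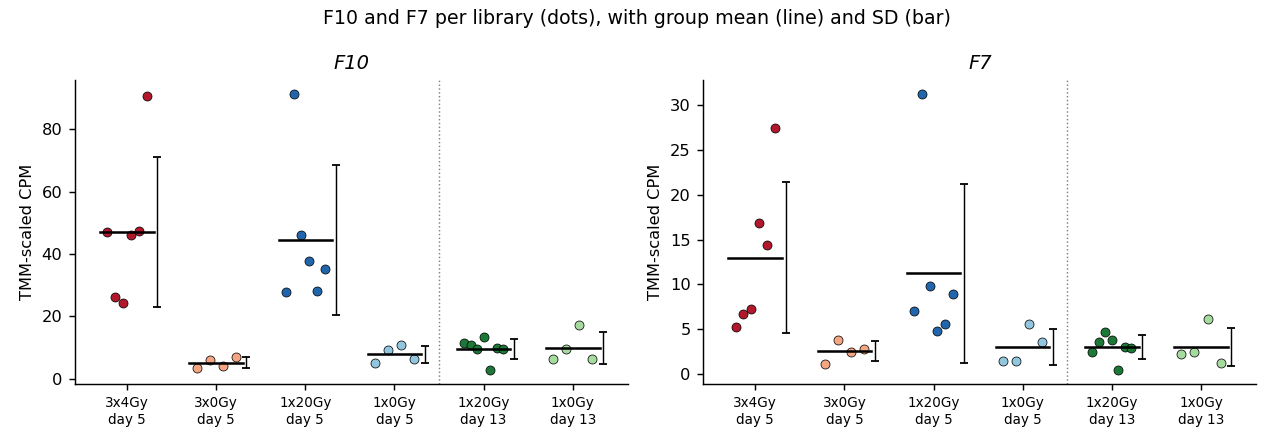
TMM-scaled CPM of F10 and F7 in each library (dots) by group, with the group mean (line) and SD (bar), and a dotted line between the days, which were scaled apart. At day 5 every irradiated library has more F10 (24.4 to 91.4 CPM) than its mocks, F7 is separate after 3x4Gy and overlaps after 1x20Gy, and the day 13 groups overlap.

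The levels of both genes overlapped between the regimens. F10 averaged 47.0 ± 23.9 CPM after 3x4Gy and 44.4 ± 24.0 CPM after 1x20Gy (SD, n = 6 each), a log2 difference of 0.069 (SE 0.31). F7 averaged 13.0 ± 8.5 CPM after 3x4Gy and 11.2 ± 10.03 CPM after 1x20Gy (n = 6 each), a log2 difference of 0.17 (SE 0.45). The difference between the regimens' responses, each against its own mock, was 0.62 (SE 0.55) for F10 and 0.39 (SE 0.84) for F7. Between the mock groups, 3x0Gy and 1x0Gy, F10 differed by -0.55 (SE 0.46) and F7 by -0.22 (SE 0.70).

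F10 and F7 followed each other over the libraries. With group means removed, their Pearson r over 31 libraries was 0.83 (0.78 over the 20 day 5 libraries), and F7 was the gene most like F10 of the 9131 compared, where 99% of genes had an r below 0.54. Aldoa, a glycolytic aldolase, followed F10 with 0.80, and the proteasome subunit Psma6 with 0.78. F7 was closest to the chemokine Ccl9 (0.87), then to F10, then to the mitochondrial superoxide dismutase Sod2 (0.82). These libraries share depth and cell mixture, and such values are a description. F7 had an r of 0.57 and F10 of 0.36 with the neutrophil markers, and 0.26 and 0.34 with the monocyte markers. Within the 3x4Gy group, the libraries with most F7 (4, 5 and 6) also had the most neutrophil marker RNA, 172, 141 and 197 CPM, against 14.8, 15.6 and 27.6 CPM in libraries 1, 2 and 3. Monocyte markers summed to between 846 and 1459 CPM after 3x4Gy, against between 566 and 957 CPM after 3x0Gy, and to between 667 and 1976 CPM after 1x20Gy, against between 538 and 993 CPM after 1x0Gy at day 5, with 1 of 7 tested markers called higher after each regimen. Neutrophil markers summed to between 14.8 and 197 CPM after 3x4Gy, against between 14.6 and 100 CPM after 3x0Gy (0 of 7 tested called). At day 5 they summed to between 37.6 and 548 CPM after 1x20Gy, against between 24.3 and 86.0 CPM after 1x0Gy (2 of 7 higher). Of 5 tested mast cell, basophil and eosinophil markers, 1 was called higher after 3x4Gy and 4 after 1x20Gy at day 5. F7 and F10 had an r of 0.24 and 0.30 with that list. The part of neutrophils, monocytes and mast cells in the F7 and F10 levels was not tested.

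The counts of F7 for each 100 counts of F10 were 27.3 ± 8.7 after 3x4Gy (n = 6), against 47.1 ± 15.04 in the 4 3x0Gy libraries. The ratio was 23.1 ± 7.2 after 1x20Gy (n = 6), against 37.8 ± 19.0 after 1x0Gy (n = 4) at day 5, and at day 13 29.4 ± 10.6 after 1x20Gy (n = 7), against 28.0 ± 7.8 after 1x0Gy (n = 4). The mock values at day 5 rest on few counts, 46 of F7 and 98 of F10 over the 3x0Gy libraries and 74 and 198 over the 1x0Gy libraries. The genes beside them on chromosome 8 were scarce or moved otherwise. Mcf2l, on the F7 side, averaged 0.869 CPM after 3x4Gy and 2.26 CPM after 3x0Gy, a log2 fold change of -1.29 (SE 0.41, edgeR adjusted p = 0.042), and one of -0.18 (adjusted p = 0.842) after 1x20Gy at day 5. The predicted genes Gm15349, Gm15352 and Gm17023 and the vitamin K-dependent Proz were too low to test, Gm15352 with 0 counts. Pcid2, beyond Proz on the F10 side, was not called in the 3 comparisons with mock (log2 -0.022, 0.48 and 0.64, adjusted p = 0.954, 0.146 and 0.0829).

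F5, the cofactor that factor Xa needs, had the lowest CPM per kilobase of exon of the 10 genes in 5 of the 6 groups. Libraries after 3x4Gy ran from 0.474 through 3.38 to 6.76 CPM, against 1.74, 1.022, 0.514 and 1.71 CPM after 3x0Gy, with a log2 fold change of 1.33 (SE 0.67). After 1x20Gy at day 5 they ran from 1.83 through 2.29 to 7.22 CPM, against 1.66, 1.92, 4.91 and 1.07 CPM after 1x0Gy (log2 0.37, SE 0.57). Both pairs of groups overlapped and neither was called. At day 13, F5 ran from 2.05 through 4.52 to 7.99 CPM after 1x20Gy, against 0.306, 1.35, 2.30 and 2.31 CPM after 1x0Gy. Here 5 of the 7 irradiated libraries lay above the mock range, and the log2 fold change was 1.58 (SE 0.48), not called by edgeR. It was called by DESeq2 (1.63), without the filter (1.56), and without 1x20Gy library 1 (1.71) or 2 (1.73).

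Fgb, the beta chain of fibrinogen, was split within the 3x4Gy group. There, libraries 1, 2 and 3 had 18.6, 37.9 and 19.0 CPM and libraries 4, 5 and 6 had 2.95, 1.38 and 3.05 CPM, against 1.39, 11.2, 4.28 and 5.43 CPM after 3x0Gy. The first 3 stood above every mock library and the others within or below the mock range, and the log2 fold change of 1.35 (SE 0.66) was not called. The same 3 libraries had summed epithelial marker levels of 730.0, 886 and 528 CPM, against 231, 236 and 187 CPM in libraries 4, 5 and 6. Libraries 4, 5 and 6 also had the most F7 and neutrophil marker RNA of the group. These patterns thus share the same split of libraries, whose cause was not tested. In the day 5 1x20Gy libraries, Fgb ran from 0.174 through 0.686 to 1.69 CPM, below all 4 of the 1x0Gy libraries with 2.42, 1.92, 2.13 and 4.12 CPM. That log2 fold change was -1.74 (SE 0.87), not called, and called with the compared groups alone in the fit (-1.75), while the marker covariate turned it to 0.50. The day 13 libraries ran from 6.53 through 26.1 to 81.0 CPM after 1x20Gy, against 7.66, 11.1, 13.8 and 17.8 CPM after 1x0Gy. There 6 of 7 irradiated libraries lay above the mock range, and the log2 fold change was 1.35 (SE 0.48), not called (1.54 and called without 1x20Gy library 7).

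Fgg, the gamma chain, followed Fgb, with a group-centred r of 0.83 over 31 libraries, the highest of the 9131 genes. It had 3.01, 12.3, 6.22, 1.18, 0.229 and 1.53 CPM in 3x4Gy libraries 1 to 6, against 2.79, 4.43, 3.43 and 2.33 CPM after 3x0Gy. The high libraries were the same for both chains. It averaged 25.5 CPM after 1x20Gy and 10.1 CPM after 1x0Gy at day 13, a log2 fold change of 1.32 (SE 0.47, edgeR adjusted p = 0.104). The alpha chain Fga had 1 count in all 31 libraries together. The next genes most like Fgb were Tspan1, a tetraspanin (0.82), and Rab15, a small GTPase (0.80). Fgb had an r of 0.61 with the epithelial markers, -0.54 with the neutrophil markers and -0.42 with the leukocyte markers. The part of non-leukocytes in the Fgb level was not tested.

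**Figure D3:**
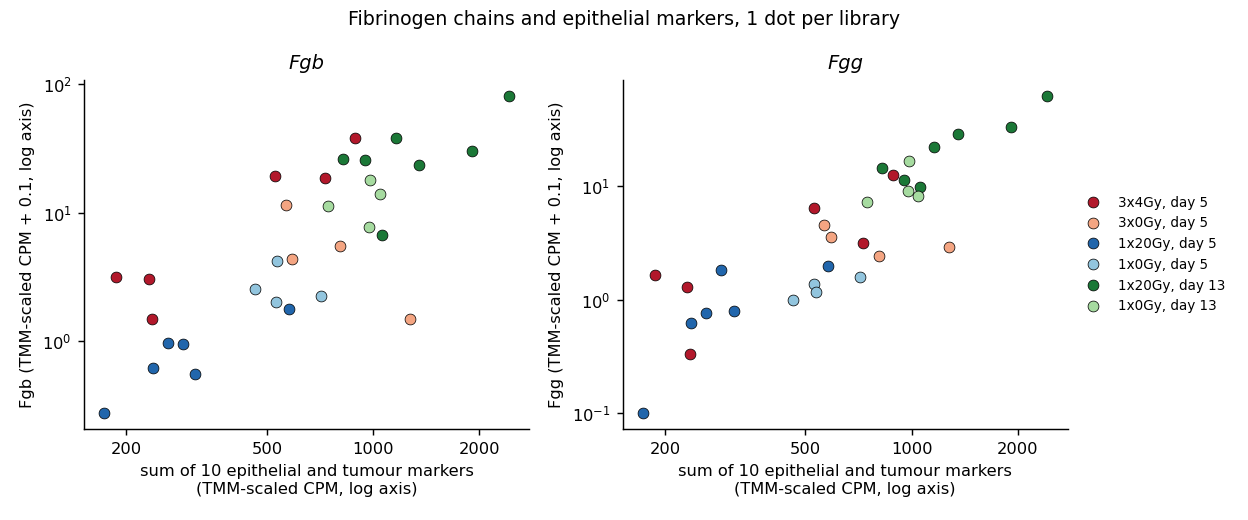
Fgb and Fgg (y axis, TMM-scaled CPM with 0.1 added, log axis) against the summed level of 10 epithelial and tumour markers (x axis, log axis) in 31 libraries coloured by group. Libraries with more epithelial marker RNA mostly had more of both chains, and 3x0Gy library 1, with 1276 CPM of markers and 1.39 CPM of Fgb, lies off that trend.

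F13a1, the A chain of factor XIII that cross-links fibrin and a gene typical of monocytes and macrophages, did not overlap in level between the regimens at day 5. The 3x4Gy libraries ran from 4.13 through 6.66 to 9.03 CPM, against 8.02, 16.4, 15.8 and 16.3 CPM after 3x0Gy. Of these mock libraries only the first was within the irradiated range, and the log2 fold change was -1.14 (SE 0.34), called lower. The call was lost without 3x4Gy library 2 (-1.004) or 4 (-1.06), and without 3x0Gy library 2 (-1.09), 3 (-1.09) or 4 (-1.07), and with reads outside genes as a covariate (-1.08). After 1x20Gy at day 5 the libraries ran from 17.1 through 19.7 to 31.4 CPM, against 14.3, 11.7, 41.8 and 12.2 CPM after 1x0Gy. They lay above 3 of the 4 mock libraries and below library 3, and the log2 fold change was 0.14 (SE 0.31), or 0.79 without 1x0Gy library 3, called in neither fit. At day 13, F13a1 ran from 4.35 through 6.92 to 17.9 CPM after 1x20Gy, against 7.66, 6.20, 11.5 and 4.16 CPM after 1x0Gy (0.17, SE 0.38).

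Between the regimens at day 5, edgeR called 3 of 12021 genes (0.025%, with 0.0166% higher and 0.00832% lower), and 2 of them were Fgb, higher after 3x4Gy, and F13a1, lower. F13a1 averaged 6.47 ± 1.99 CPM after 3x4Gy and 22.1 ± 5.4 CPM after 1x20Gy (n = 6 each), with no overlap (0.316% of all genes, 0.175% below) and a log2 difference of -1.77 (SE 0.30). Fgb averaged 13.8 ± 14.3 CPM after 3x4Gy and 0.761 ± 0.524 CPM after 1x20Gy (n = 6 each), with overlap and a log2 difference of 4.16 (SE 0.73). The remaining gene, looked up after the values were seen, was Upk3a, a urothelial membrane protein gene, at 8.34 CPM after 3x4Gy and 0.286 CPM after 1x20Gy. These calls were near the threshold. Leaving out any 1 library other than 3x4Gy library 6 ended the F13a1 call, with values between -1.88 and -1.62. The Fgb call ended without any of 3x4Gy libraries 1 to 3 (4.07, 3.52 and 4.05) or any 1x20Gy library (between 3.92 and 4.63). Limma voom called neither, nor did a fit without the filter or with reads outside genes as a covariate, while DESeq2 called 14 genes. The Fgb call was also lost with the fibroblast and epithelial covariate (3.40). The difference between the responses, each to its own mock, was -1.29 (SE 0.46) for F13a1 and 3.09 (SE 1.09) for Fgb. Over all genes, edgeR's test of that difference called 0 of 12021 genes, with 716 at an unadjusted p below 0.05, DESeq2 1 and limma voom 0. The direct difference between regimens takes no account of the mock groups. Between 3x0Gy and 1x0Gy edgeR also called 0 genes, with 667 at an unadjusted p below 0.05 and none of the 10 genes among them, DESeq2 1 and limma voom 0.

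F13a1 was most like fibronectin Fn1 (0.72), which marks monocytes and some macrophages, then Retnla (0.70), a gene of alternatively activated macrophages, and Stk11ip (0.64). Of the marker lists named here, F13a1 had an r of 0.44 with the platelet markers, 0.12 with the macrophage and 0.029 with the monocyte markers, while 99% of genes had an r with F13a1 below 0.42.

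Tfpi, the inhibitor of the tissue factor complex, was called lower after 1x20Gy at day 5. The 3x4Gy libraries ran from 4.26 through 5.41 to 7.25 CPM, against 4.18, 16.0, 7.88 and 7.13 CPM after 3x0Gy, overlapping, with a log2 fold change of -0.63 (SE 0.28), not called, and -0.23 without 3x0Gy library 2. After 1x20Gy they ran from 3.67 through 5.70 to 7.88 CPM, all below the 8.04, 9.59, 10.97 and 12.7 CPM after 1x0Gy. That log2 fold change was -0.88 (SE 0.27), called lower. The call was lost without 1x20Gy library 2 (-0.87), 4 (-0.79) or 5 (-0.84), without 1x0Gy library 2 (-0.92), 3 (-0.85) or 4 (-0.77), and with reads outside genes as a covariate (-0.54). At day 13 Tfpi ran from 2.45 through 4.52 to 6.84 CPM after 1x20Gy, against 6.13, 4.58, 7.32 and 6.47 CPM after 1x0Gy, with overlap (-0.41, SE 0.26). Its level was most like those of Slmo2 (0.83), Espl1 (0.83) and Enoph1 (0.82).

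Thbd, thrombomodulin, which redirects thrombin to activate protein C, was narrowly spread after 3x4Gy. It ran from 8.998 through 9.34 to 11.8 CPM, all above the 4.18, 7.49, 6.17 and 5.12 CPM after 3x0Gy. The fold was 1.70 (log2 0.76, SE 0.22). The call was lost without 3x4Gy library 6 (0.70) or 3x0Gy library 1 (0.66) or 4 (0.70), by library size alone (0.66), without the filter (0.76) and with the compared groups alone in the fit (0.75). With 1x20Gy it ran at day 5 from 6.87 through 8.51 to 11.3 CPM, against 8.29, 4.31, 9.82 and 8.77 CPM after 1x0Gy, overlapping, with a log2 fold change of 0.19 (SE 0.21). Day 13 levels ran from 1.81 through 4.04 to 5.88 CPM after 1x20Gy, against 3.06, 4.31, 4.18 and 4.16 CPM after 1x0Gy (-0.010, SE 0.31). The difference of the 2 day 5 responses was 0.57 (SE 0.30). Thbd was most like Hn1l (0.73), the glutathione transferase Gstm1 (0.69) and the aldehyde dehydrogenase Aldh3b1 (0.67), and had an r of 0.61 with the platelet markers. These summed to between 25.7 and 31.3 CPM after 3x4Gy, against between 36.8 and 153 CPM after 3x0Gy. Most of the sum was Pf4, which averaged 27.6 CPM over all libraries, ahead of Itgb3 with 8.40 CPM. Of 3 platelet markers tested after 3x4Gy, 1 was called lower, and their median log2 fold change was 0.38. The part of platelets in the Thbd level was not tested.

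Procr, the receptor that presents protein C to thrombomodulin, was the most abundant of the 10 genes per length. After 3x4Gy it ran from 85.0 through 119.6 to 199 CPM, against 63.8, 93.7, 35.6 and 65.6 CPM after 3x0Gy. Only 3x0Gy library 2 reached into the irradiated range, and the fold was 2.04 (log2 1.03, SE 0.25). It was not called with the compared groups alone in the fit (1.01). The 1x20Gy libraries of day 5 ran from 119 through 136 to 176 CPM, all above the 51.7, 80.0, 81.2 and 75.9 CPM after 1x0Gy, with a fold of 1.96 (log2 0.97, SE 0.25). That call was lost without 1x0Gy library 1 (0.84). Day 13 values ran from 51.0 through 66.5 to 89.5 CPM after 1x20Gy, against 72.9, 109, 71.9 and 67.4 CPM after 1x0Gy, with overlap (-0.25, SE 0.17). The difference of the day 5 responses was 0.060 (SE 0.35). Procr had an r of 0.59 with the macrophage markers, and was most like Ralgds (0.75), the semaphorin receptor Nrp2 (0.75) and the zinc transporter Slc39a1 (0.74). Its r was 0.51 with the mast cell, 0.48 with the platelet and neutrophil and -0.42 with the T cell markers. The macrophage markers summed to between 6311 and 13159 CPM after 3x4Gy and between 7666 and 23486 CPM after 3x0Gy. At day 5 the sums were 5472 to 13685 CPM after 1x20Gy and 9388 to 15173 CPM after 1x0Gy. Of 10 tested, 1 was called higher after each regimen, with median log2 fold changes of -0.33 and -0.30. The part of macrophages in the Procr level was not tested. Endothelial cells also express Procr and Thbd. Their 10 markers summed to between 124 and 160.4 CPM after 3x4Gy, against between 61.0 and 81.4 CPM after 3x0Gy (2 of 7 tested called higher), and at day 5 to between 102 and 160.3 CPM after 1x20Gy, against between 65.9 and 92.5 CPM after 1x0Gy (1 of 7 higher). Procr and Thbd had an r of -0.12 and 0.022 with them.

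**Figure D4:**
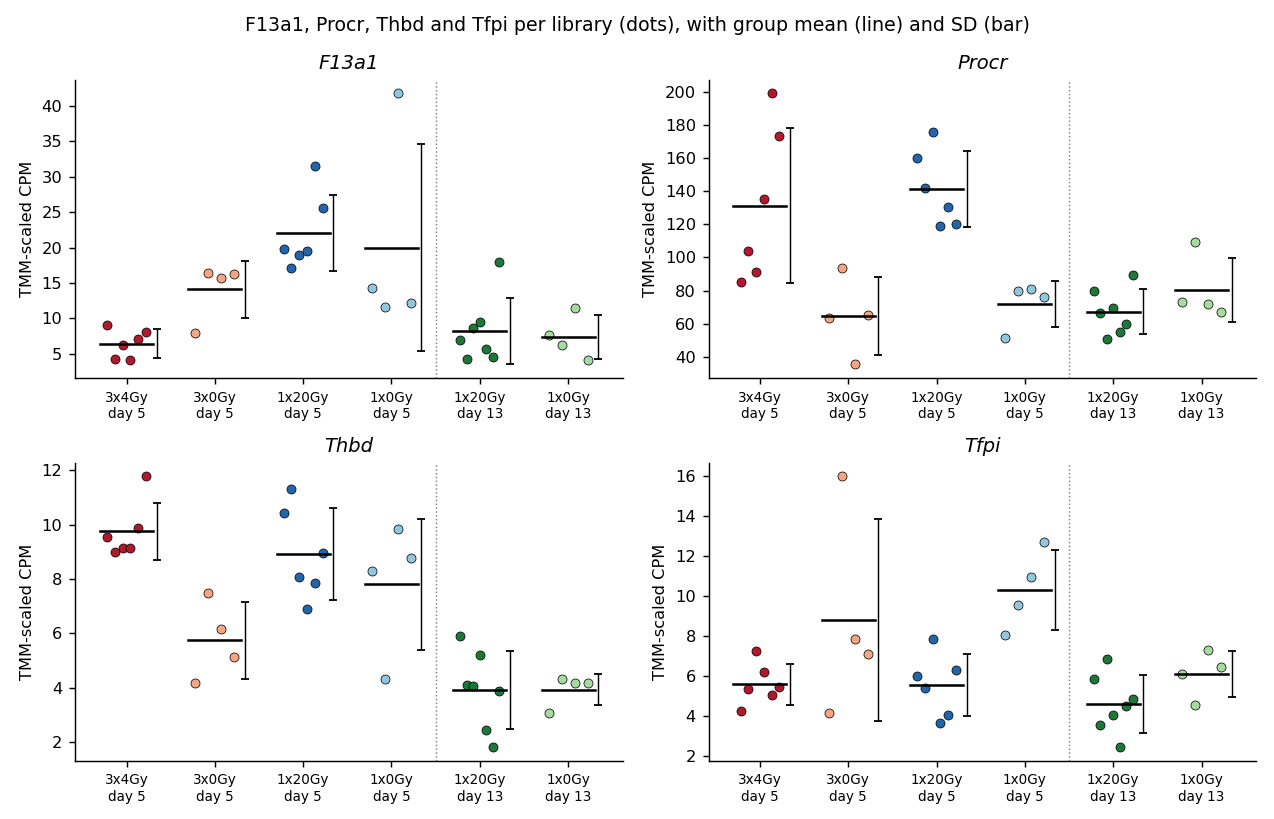
TMM-scaled CPM of F13a1, Procr, Thbd and Tfpi in each library (dots) by group, with group mean (line) and SD (bar), and a dotted line between the days. F13a1 is below its mock mean after 3x4Gy and lower there than in every 1x20Gy library at day 5, while Procr is higher after both regimens at day 5.

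Plaur, the urokinase receptor carried by neutrophils, monocytes and macrophages, was called in no comparison with mock. It ran from 62.7 through 93.8 to 157 CPM after 3x4Gy, against 98, 76.0, 72.8 and 77.0 CPM after 3x0Gy (log2 0.29, SE 0.20). For 1x20Gy at day 5 the range was 101 through 112 to 129.7 CPM, against 69.6, 80.8, 117 and 79.5 CPM after 1x0Gy (0.40, SE 0.19). By day 13 it ran from 41.6 through 62.5 to 74.1 CPM after 1x20Gy, against 65.0, 82.5, 100.3 and 100.002 CPM after 1x0Gy (-0.48, SE 0.16). All 3 pairs of groups overlapped, and the last was called by library size alone (-0.71), without the filter (-0.50) or without 1x0Gy library 1 (-0.59). Plaur was most like Zbtb34 (0.81), Rtn4ip1 (0.77) and Sipa1l3 (0.76).

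Per kilobase of exon, Procr and Plaur had the highest levels of the 10 genes in all 6 groups, at 64.6 ± 23.0 and 37.9 ± 12.6 CPM per kilobase after 3x4Gy and 31.8 ± 11.7 and 30.9 ± 4.4 after 3x0Gy. Within each mock group the pair lay within 1 SD of each other. F10 came next after 3x4Gy (17.2 ± 8.8 CPM per kilobase, n = 6) and after 1x20Gy at day 5 (16.3 ± 8.8, n = 6), ahead of F7 by more than 1 SD. In the day 5 mock groups F10 followed F13a1, at 1.91 ± 0.62 after 3x0Gy and 2.87 ± 0.96 after 1x0Gy (n = 4 each), within 1 SD of it. At day 13 Fgb followed Plaur after 1x20Gy (8.62 ± 6.09, n = 7), ahead of F10 (3.54 ± 1.19), and F10 did so after 1x0Gy (3.63 ± 1.89, n = 4), ahead of Fgb (3.30 ± 1.12). In both groups Fgb and F10 lay within 1 SD of each other.

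The list of coagulation and fibrinolysis genes held 41 others, of which 20 could be tested at day 5 and 18 at day 13. This list too was chosen with earlier results of these data known. The adjusted p-values of its genes, taken over all genes tested, are therefore no test of a list set in advance. Among liver-made factors, prothrombin (F2) had 7 counts, Plg and Fga 1 count each, and the serpins Serpina5 and Serpina10 had 0 counts over the 31 libraries. F9, factor IX, had 198 counts and protein C (Proc) 76, against 4788 for protein S (Pros1) and 989 for the fibrinogen chain Fgg. In 3x4Gy against 3x0Gy, 1 of the 20 rose and 4 fell, in 1x20Gy against 1x0Gy at day 5 2 rose and 4 fell, and at day 13 2 of 18 rose and 4 fell, beside the shares of all genes given above. Their median log2 fold changes were -0.46, -0.24 and -0.039. None of the 20 was called between the regimens, for the difference of responses or between the mock groups.

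Serpine2, protease nexin-1, which inhibits thrombin and urokinase, averaged 48.1 CPM after 3x4Gy and 155.6 CPM after 3x0Gy (log2 -1.69, SE 0.29, edgeR adjusted p = 0.000478), and 35.8 CPM after 1x20Gy and 116 CPM after 1x0Gy at day 5 (-1.69, SE 0.29, adjusted p = 0.000783). At day 13 it was not called (-0.35, SE 0.21, adjusted p = 0.346). Plau, urokinase, the ligand of Plaur, averaged 61.6 CPM after 1x20Gy and 151 CPM after 1x0Gy at day 5 (-1.30, SE 0.33, adjusted p = 0.0144) and at day 13 77.8 CPM after 1x20Gy and 126 CPM after 1x0Gy (-0.69, SE 0.19, adjusted p = 0.0292). After 3x4Gy its change of -0.84 (SE 0.32) had an adjusted p of 0.0917. Fibroblasts and tumour cells are known to express both genes. With fibroblast and epithelial markers as a covariate none of these calls remained. The values were then -0.45 after 3x4Gy and -0.55 after 1x20Gy at day 5 for Serpine2. For Plau they were -1.90 at day 5, a larger fall than the -1.30 without the covariate, and -0.43 at day 13. The part of fibroblasts and tumour cells in the levels of both genes was not tested. With reads outside genes as a covariate Plau was not called at day 13 (-0.39). Leaving out 1x0Gy library 4 ended the Plau call at day 5 (-1.10), and leaving out 1x0Gy library 3 (-0.47) or 4 (-0.72) ended it at day 13.

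**Figure D5:**
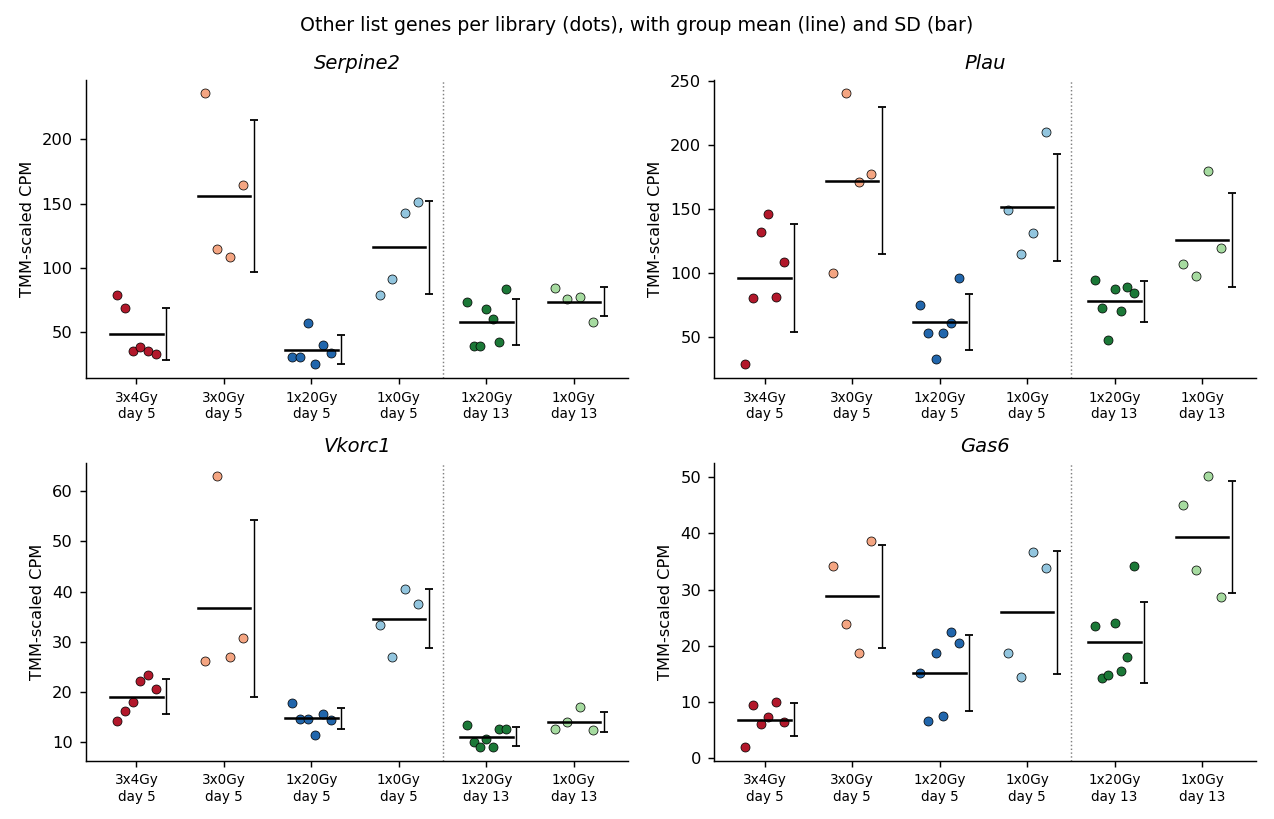
TMM-scaled CPM of Serpine2, Plau, Vkorc1 and Gas6 in each library (dots) by group, with group mean (line) and SD (bar), and a dotted line between the days. Serpine2 lies below its mock in all irradiated libraries at day 5, and Plau overlaps its mock after 3x4Gy.

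Of 5 genes for the carboxylation and secretion of clotting factors, all were tested at day 5 and 4 at day 13. In each comparison with mock 1 was called lower and none higher, Vkorc1 in both at day 5 and Mcfd2 at day 13. Of all genes, 7.14%, 4.86% and 3.82% were called lower and 5.22%, 3.64% and 4.16% higher. Vkorc1, the epoxide reductase that recycles vitamin K for the carboxylation of factors VII, IX and X, averaged 19.1 CPM after 3x4Gy and 36.7 CPM after 3x0Gy (log2 -0.93, SE 0.21, edgeR adjusted p = 0.00545). It averaged 14.7 CPM after 1x20Gy and 34.6 CPM after 1x0Gy at day 5 (-1.23, SE 0.21, adjusted p = 0.000836), and was there the only called gene of the 41 to keep its call with the marker covariate (-1.50, adjusted p = 0.0336). After 3x4Gy the call was lost with that covariate (-1.23) and with reads outside genes (-0.54), and the value was -0.56 without 3x0Gy library 2. At day 13 Vkorc1 averaged 11.1 CPM after 1x20Gy and 14.0 CPM after 1x0Gy (-0.34, SE 0.18, adjusted p = 0.263). The carboxylase Ggcx was not called after 3x4Gy (-0.88, adjusted p = 0.0802) or after 1x20Gy at day 5 (-0.40, adjusted p = 0.507). Gas6, a vitamin K-dependent ligand of TAM receptors, averaged 6.92 CPM after 3x4Gy and 28.8 CPM after 3x0Gy (-2.04, SE 0.37, adjusted p = 0.000938), and 20.6 CPM after 1x20Gy and 39.3 CPM after 1x0Gy at day 13 (-0.92, SE 0.23, adjusted p = 0.0209). The 3x4Gy call was lost with the marker covariate (-1.29), and the day 13 call with either covariate (-0.64 and -0.84) and without 1x0Gy library 1 (-0.85) or 3 (-0.78). Mcfd2, which with Lman1 carries factors V and VIII out of the endoplasmic reticulum, fell at day 13 to 28.3 CPM after 1x20Gy, against 41.4 CPM after 1x0Gy (-0.55, SE 0.15, adjusted p = 0.0337). That call was lost without 1x20Gy library 3 (-0.54), 4 (-0.48), 6 (-0.52) or 7 (-0.53) and without any 1x0Gy library (between -0.60 and -0.50), and with the marker covariate (-0.42).

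Thbs1, thrombospondin-1, a matrix protein that platelets and macrophages release, averaged 114 CPM after 3x4Gy and 72.3 CPM after 3x0Gy (log2 0.65, SE 0.20, edgeR adjusted p = 0.0384). It averaged 186 CPM after 1x20Gy and 90.0 CPM after 1x0Gy at day 5 (1.04, SE 0.20, adjusted p = 0.00227). The 3x4Gy call was lost without 3x4Gy library 1 (0.55), 5 (0.64) or 6 (0.67) and without 3x0Gy library 1 (0.58), 2 (0.64) or 3 (0.65), under upper quartile (0.58) and library size scaling (0.56), with the compared groups alone (0.64), and with either covariate (0.63 and 0.62). The 1x20Gy call was lost with the marker covariate alone (1.023). S100a10, which with annexin A2 (Anxa2) binds plasminogen on cells, averaged 169.7 CPM after 1x20Gy and 90.7 CPM after 1x0Gy at day 5 (0.90, SE 0.24, adjusted p = 0.0193). That call was lost without 1x20Gy library 3 (0.82) and without 1x0Gy library 1 (0.87) or 4 (0.84), by library size (0.80) and with the marker covariate (1.01). Anxa2 rose at day 13, at 472 CPM after 1x20Gy and 295 CPM after 1x0Gy (0.68, SE 0.19, adjusted p = 0.0392). Leaving out any library other than 1x20Gy library 2 or 5 ended it (between 0.62 and 0.73), as did limma voom (0.63), upper quartile (0.64) and library size scaling (0.45) and the marker covariate (0.84). Vwf, von Willebrand factor, an endothelial and platelet product that carries factor VIII, was at 3.40 CPM after 1x20Gy and 1.14 CPM after 1x0Gy at day 13 (1.51, SE 0.41, adjusted p = 0.031). That call was lost without 1x20Gy library 4 (1.41) or 6 (1.42) and without 1x0Gy library 1 (1.53), 2 (1.29) or 4 (1.41), by library size (1.27) and with the marker covariate (1.92). The endothelial marker sums, a list that holds Vwf, were 81.0 to 182 CPM after 1x20Gy and 65.3 to 80.4 CPM after 1x0Gy, and the part of endothelial cells in the Vwf level was not tested.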

How the data were processed

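The deposited counts are 1 table per library of reads per gene symbol with 5 summary lines. Per the submitters' processing notes, bcl2fastq 2.20.0.422, cutadapt 1.5, HISAT2 2.0.4 and HTSeq 0.9.1 were used, with the builds GRCm38 and mm10. The annotation and strand setting are not given in the sources used here, so reads of overlapping genes on opposite strands may be mixed.

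From the counts, edgeR 4.0.16 in R 4.3.3 (TMM, filterByExpr with a minimum count of 10, robust quasi-likelihood test, two-sided) was fitted over all genes. The 20 day 5 libraries shared 1 fit and the 11 day 13 libraries another. Called means a p under 0.05 after Benjamini-Hochberg adjustment across every gene tested. SE is the log2 fold change divided by the root of F. Likeness is Pearson's r of log2 CPM (prior count 2) with group means removed, over genes averaging at least 5 CPM. DESeq2 1.42.0, limma 3.58.1 (voom), other scalings, filters, covariates and left-out libraries were alternatives. The fits were tested on simulated data. Positions and exon lengths came from GENCODE M21.

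The 10 genes and the list of 51 were chosen with earlier results of these data known. Named genes were the 10, up to 4 called list genes per direction and comparison, the 3 genes most like each of the 10, and neighbours of F7 and F10. Replicate libraries differed beyond counting error (chi-square per degree of freedom 3.42 to 62.7). Intervals and floors from counts cover counting error only. Not every list gene that the rule names is reported here.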

Additional observations from a re-analysis of the deposited data

Results flagged for a closer look

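Within a group, 1 library stood far from the others in 16 of the 60 sets of values tested (10 genes in 6 groups). The cut-off (Dixon's ratio) gives about 1 in 20 for independent sets of values with a normal spread. CPM values need not have that spread, and the sets share libraries, so the 16 cannot be set against that rate. For F10 these were 3x4Gy library 6 at 90.8 CPM (next 47.4), 1x20Gy library 2 at day 5 at 91.4 CPM (next 46.2) and 1x20Gy library 5 at day 13 at 2.86 CPM (next 9.64). F7 had 31.3 CPM in the same day 5 1x20Gy library 2 (next 9.76), which also had the highest neutrophil (548 CPM) and monocyte (1976 CPM) marker sums of its group. F13a1 was at 8.02 CPM in 3x0Gy library 1, 41.8 CPM in 1x0Gy library 3 at day 5 and 17.9 CPM in 1x20Gy library 7 at day 13. F3 was at 7.58 CPM in 3x4Gy library 2 and 16.0 CPM in 1x20Gy library 6 at day 13. F5 was at 7.22 CPM in 1x20Gy library 5 at day 5, and Fgb at 81.0 CPM in 1x20Gy library 1 at day 13, the library with the highest epithelial marker sum (2427 CPM). Thbd was at 11.8 CPM in 3x4Gy library 6 and 3.06 CPM in 1x0Gy library 1 at day 13. Procr was at 109 CPM in 1x0Gy library 2 at day 13. Plaur was at 98 CPM in 3x0Gy library 1 and 41.6 CPM in 1x20Gy library 4 at day 13.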

How the results depend on the processing

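The numbers of the 10 genes called in the 4 comparisons (5, 4 and 0 against mock, 2 between regimens) depended on the processing, and the cause was not tested. After 3x4Gy the count was 3 without the filter (437 of all genes higher and 806 lower). It was 2 with the fibroblast and epithelial covariate (83 of all genes, against 1486) and 3 with the compared groups alone (697 genes). When 1 library was left out it was 3 to 5 (1131 to 1812 genes). The covariate of reads outside genes gave 668 genes. After 1x20Gy at day 5 it was 0 with the first covariate (59 genes, against 1022) and 2 to 4 with a library left out (553 to 1026 genes). At day 13 it was 1 with DESeq2 (1265 genes) and 1 by library size (1529 genes, against 884). It was 2 without the filter (425 of all genes higher and 526 lower) and 1 with reads outside genes (625 higher and 549 lower). The first covariate gave 133 genes there, and the count was 0 to 1 with a library left out (289 to 1239 genes). Between regimens limma voom, no filter and reads outside genes each gave 0 (0 genes), the first covariate 1, the compared groups alone 1 (1 gene), DESeq2 14 genes, and left-out libraries 0 to 2 (0 to 5 genes). The difference of responses and the mock groups each had 0 genes called, 1 with DESeq2 and 0 to 1 with a library left out. The sample titles do not say whether equal replicate numbers pair libraries. Same-number libraries had correlations of -0.43 to 0.40, 11 of 22 above 0.1. Libraries of unlike number were not compared, so these values cannot decide whether the libraries are paired. The replicate block gave 2 of the 10 genes after 1x20Gy at day 5 (428 of all genes higher and 463 lower). Between regimens it gave 1 of the 10 and 5 genes in all. Of the 10 genes it ended the calls of Thbd after 3x4Gy (0.74), F7 (1.72) and Tfpi (-0.86) after 1x20Gy at day 5, and Fgb between regimens (3.83). Signs turned for uncalled values, among them F3 after 3x4Gy (0.31) and Fgb after 1x20Gy at day 5 (0.50) with the first covariate, F10 at day 13 (0.63) with reads outside genes, for the difference of responses Procr (-0.0064 with the first covariate, -0.14 to 0.32 with a library left out) and F7 (-0.097 to 1.05), and between mocks F7 (0.0059 by voom, -0.48 to 0.27), Procr (-0.42 to 0.038), F13a1 (-0.67 to 0.16) and Plaur (-0.21 to 0.075). Of the other list genes, 5, 6 and 6 were called against mock, and 0, 1 and 1 with the first covariate. A count of 3 sets a floor of 0.398 to 1.14 CPM, near which F3, F5 and, after 1x20Gy at day 5, Fgb lie.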
